A study of Mus musculus with 8 samples.

Results

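RNA levels are described here for 8 genes of the mouse intestinal epithelium in cells with and without the transcription factor gene Sox4. Of these, 4 are known as reserve stem cell genes (Bmi1, Hopx, Tert and Mex3a) and 4 as genes of fetal or regenerating epithelium (Clu, Ly6a, Anxa1 and Afp). They are 8 of the 23366 gene symbols in the deposited count tables and were picked by name, with their values in these libraries already known. Their levels, fold changes and ranges are therefore a description with no test. All 8 were among the 20427 genes that passed the filter on low counts.

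The crypts of the small intestine hold fast-dividing Lgr5+ stem cells at their base. A reserve population is thought to divide less often and to replace these cells after damage, and Bmi1, Hopx, Tert and Mex3a have each been used to mark such cells or slowly dividing stem cells. Epithelium that regenerates after injury turns on genes that are otherwise typical of the fetal gut, among them Ly6a (Sca-1), Anxa1 and Clu, downstream of the YAP and TEAD regulators. Afp encodes alpha-fetoprotein, the main serum protein of the fetus, made by fetal liver and yolk sac and in small amounts by fetal gut, and largely silent after birth.

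Cells came from male littermates aged 6 weeks, all of which carried Sox4 alleles flanked by loxP sites (Sox4fl/fl). The controls had these alleles alone, and the conditional knockout animals (Sox4cKO) also carried villin-Cre, in which the villin promoter drives the recombinase in gut epithelium from fetal life on. CD326+ epithelial cells were sorted into a CD44- gate rich in villus cells (CD44minus) and a CD44+ gate rich in crypt cells (CD44plus). A library was made from 50000 cells, and every combination of genotype and gate had 2 libraries from separate animals, so a range of a group is the range of 2 values. Value pairs are given as replicate 1 and replicate 2.

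Depth was uneven between gates. Gene counts were 886194 to 6963345 per library in CD44minus and 6007554 to 13238050 in CD44plus. Olfactory and pheromone receptor genes, which the gut is not thought to use, gave a measure of background reads. This measure put 17.6 and 6.61% of the gene counts of control CD44minus and 19.99 and 0.901% of those of Sox4cKO CD44minus down to background, against 0.330 to 1.74% in CD44plus. Sox4 itself was at 128 and 120.2 CPM (gene reads scaled to library size) in control CD44plus cells and at 17.8 and 25.7 CPM in Sox4cKO CD44plus, so the labels held for the deleted gene. The Sox4cKO CD44minus replicates stood apart from each other, with 10010 and 51760 CPM over 12 villus enterocyte genes. In the CD326+ cells of the CD44plus gate, 18 T cell genes still summed to 2467 to 6498 CPM.

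The promoters of Afp and Mex3a are shown because these were the members with the lowest fold changes of Sox4cKO against control in CD44plus. Each run is the 250 bases before the RefSeq start on GRCm38.p6, read 5′ to 3′, with capitals for a match to 1 of 4 motifs. Afp lies at chr5:90490464-90490713 and Mex3a at chr3:88531696-88531945, both on the + strand.
Afp: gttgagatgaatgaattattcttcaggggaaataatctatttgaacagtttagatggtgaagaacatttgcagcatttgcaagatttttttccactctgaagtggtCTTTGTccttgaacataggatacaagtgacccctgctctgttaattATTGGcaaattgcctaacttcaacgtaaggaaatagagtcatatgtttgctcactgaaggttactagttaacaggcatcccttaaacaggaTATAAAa
Mex3a: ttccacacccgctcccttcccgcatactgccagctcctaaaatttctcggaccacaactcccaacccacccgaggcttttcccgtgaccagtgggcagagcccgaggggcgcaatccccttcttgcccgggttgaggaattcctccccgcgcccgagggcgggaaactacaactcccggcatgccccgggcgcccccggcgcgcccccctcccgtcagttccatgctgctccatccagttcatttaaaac
Both strands were searched. TATAAA is the TATA box, where general transcription factors bind. CCAAT is the motif of the factor NF-Y. The letters ACAAAG and, as a variant, ACAATG are cores to which SOX proteins such as Sox4 are known to bind. Of the 32851 promoters of the same length in the RefSeq table, 12.4% held TATAAA, 33.9% held CCAAT, 16.5% held ACAAAG and 10.7% held ACAATG. The Afp promoter held ACAAAG and CCAAT on the reverse strand, 144 and 98 bases before the RefSeq start, and TATAAA on the forward strand. No match overlapped another. TATAAA began 7 bases before the RefSeq start and 30 bases before the GENCODE start, since these starts lie 23 bases apart. The Mex3a run held no match. That run ends at 88531945, while the GENCODE start of Mex3a lies downstream at 88532395. The bases directly before the GENCODE start were thus not searched for Mex3a. The Mex3a run had 19 CpG dinucleotides and 64% G and C. The Afp run had 1 and 36%, and the median promoter 6 and 52.4%. Among the other members, 4 had a promoter in the table. Bmi1 was the richest in G and C (70.4%, 21 CpG) and held no match, as did Mex3a. Tert held ACAATG on the reverse strand, Anxa1 TATAAA on the forward strand and both promoters of Hopx CCAAT on the reverse strand.

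In control cells, Bmi1, Hopx, Mex3a, Ly6a and Afp were higher in both CD44plus libraries than in both CD44minus libraries. In Sox4cKO cells this held for Bmi1, Hopx and Anxa1, while Tert was lower in both CD44plus libraries. These orders use CPM with TMM scaling factors, which ran from 0.527 to 1.72. On gene counts without the factors, Mex3a and Ly6a overlapped between gates in control, as did Bmi1, Anxa1 and Tert in Sox4cKO. Clu in control was then lower in both CD44plus libraries, and Ly6a in Sox4cKO higher in both. Between genotypes in CD44plus, the Sox4cKO values of Hopx, Tert, Mex3a and Afp both lay below both controls, and Anxa1 was higher in both. The share of all 20427 genes without overlap between gates was 38.7% higher and 41% lower in control, and 21.1% higher and 16.2% lower in Sox4cKO. Between genotypes it was 14.2% higher and 16.4% lower in CD44plus. In CD44minus, Tert was higher and Clu lower in both Sox4cKO libraries, beside 6.52% of all genes higher and 5.94% lower. Without the TMM factors, both genes overlapped between genotypes in CD44minus, and Ly6a was lower in both Sox4cKO libraries. In these bulk samples, fewer cells of a type and less RNA per cell cannot be told apart.

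**Figure D1:**
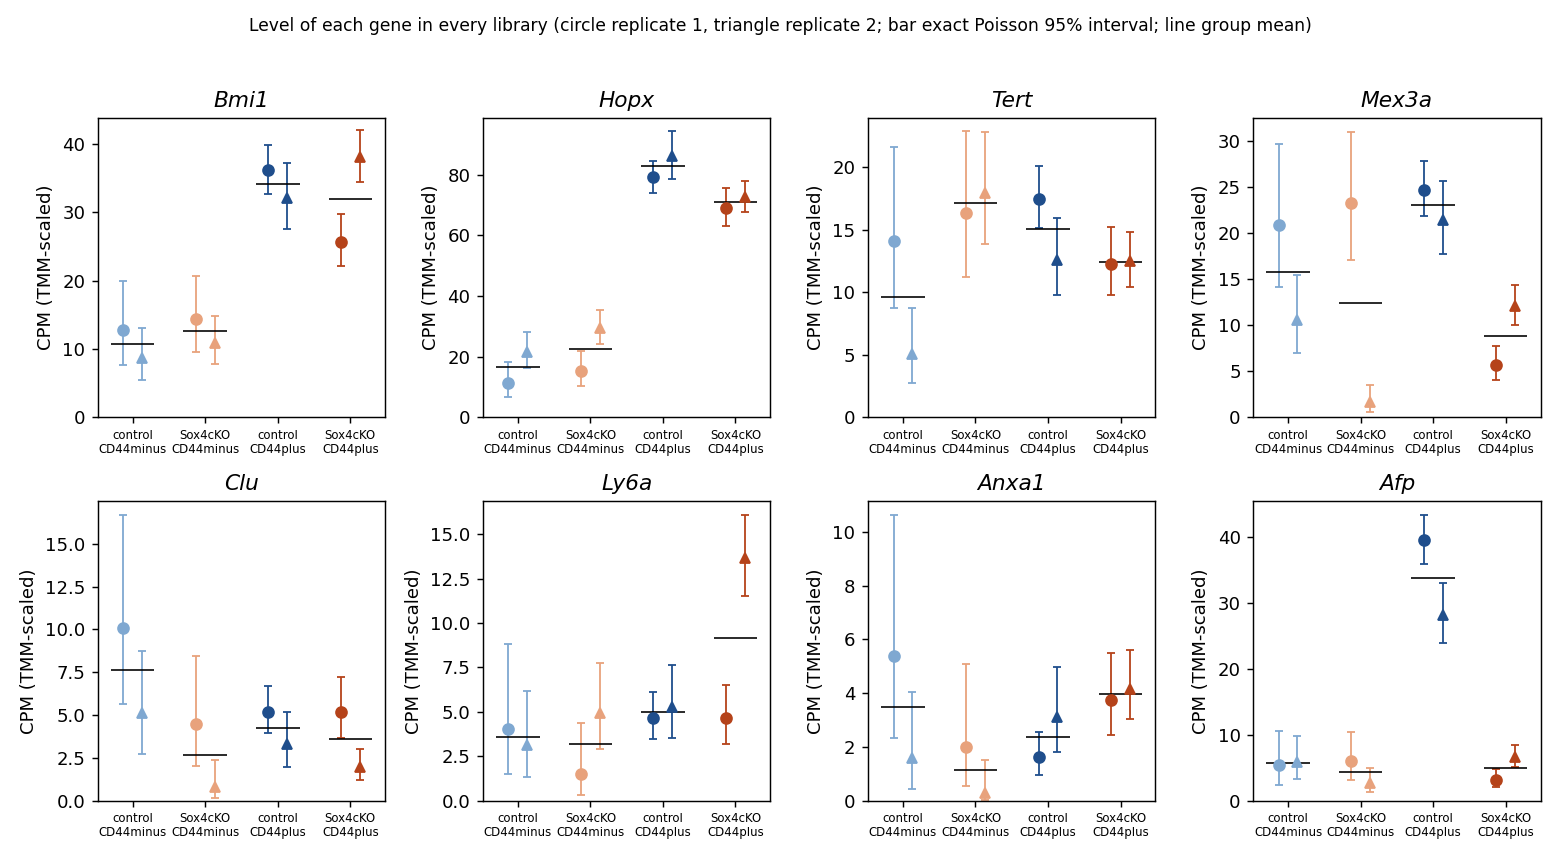
Level of the 8 genes in each library (CPM scaled by TMM, linear axis from 0), by group of genotype and gate. Circles are replicate 1, triangles replicate 2, bars the exact Poisson 95% interval of the reads and lines the group mean; Afp is at 39.4 and 28.1 CPM in control CD44plus cells and at 6.63 CPM or less elsewhere.

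No member was called at an adjusted p of 0.05 in any of the 5 comparisons (edgeR's quasi-likelihood test over all genes). The same rule called 2.46% of all genes between gates in control (2.01% higher and 0.445% lower in CD44plus) and 2.59% in Sox4cKO (1.66% higher and 0.93% lower). It called 0% between genotypes in CD44plus, in CD44minus and for the interaction of genotype and gate. At an unadjusted p of 0.05, edgeR had 128, 116 and 50 genes in these 3 comparisons (0.627, 0.568 and 0.245%). Each share is below what that threshold would give without any difference. DESeq2 called no gene in the 3 comparisons either, nor did limma-voom, which was run throughout with the animal as a random block. Between gates in control, each of these tools called 1 member, Hopx, beside 13.7% of the genes DESeq2 could test and 10.7% of those in limma-voom. In a fit of the 4 CD44plus libraries alone, 0.0997% of 17052 genes were called, all lower in Sox4cKO. That fit called no member, and Sox4 passed it at a log2 fold change of -2.51 (SE 0.22, edgeR adjusted p = 0.0186). In the fit of all 8 libraries even Sox4, the deleted gene, was not called in CD44plus (-2.51, SE 0.61). The absence of calls between genotypes in that fit thus does not show that the genotypes were alike. The table names give both gates of an animal the same number. An edgeR fit with the animal as a fixed replicate block called 2 members in either direction between gates in control, Hopx and Afp. Both were higher in CD44plus, beside 17.9% of all genes called in either direction. For reading the gene lists that follow, 23% of all genes had an unadjusted p under 0.05 (edgeR) between gates in control and 17.7% in Sox4cKO. In Sox4cKO, DESeq2 called 11.6% of genes between gates, limma-voom 5.41% and the block 8.38%. The median log2 fold change of the 8 genes was 0.62 between gates in control and 0.92 in Sox4cKO, beside -0.19 and -0.48 for all genes tested. For Sox4cKO against control it was -0.23 in CD44plus and -0.24 in CD44minus, beside -0.000524 and 0.19.

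**Figure D2:**
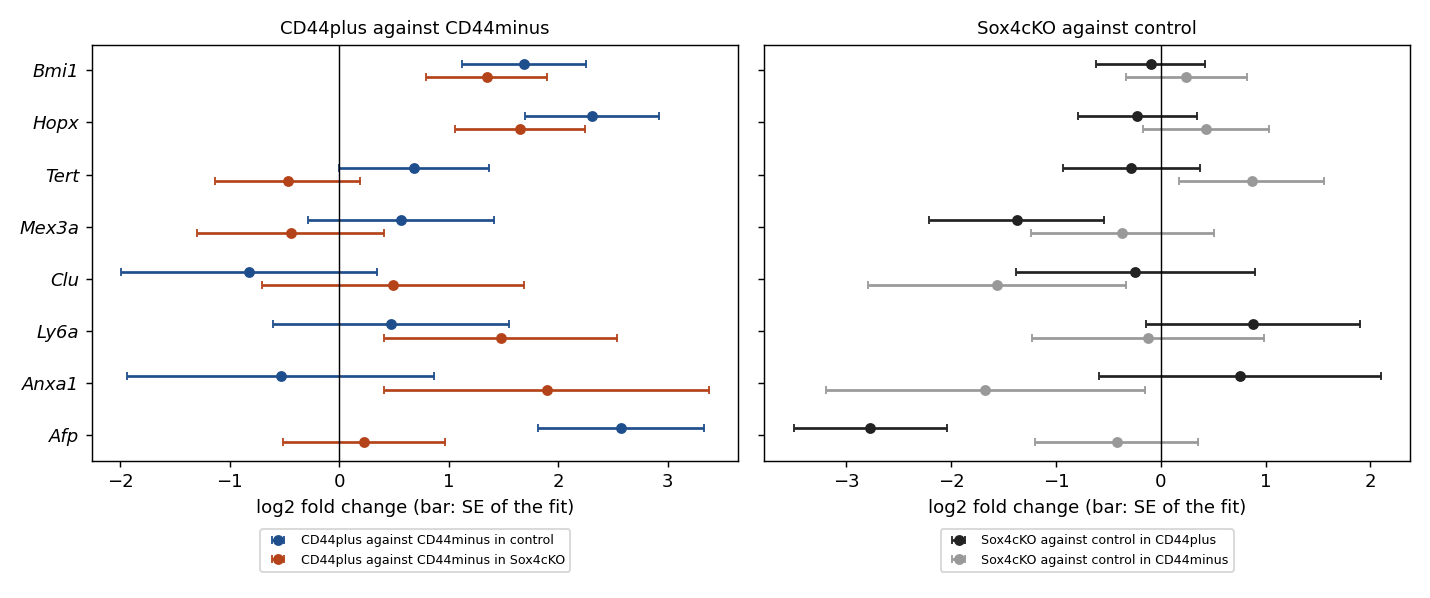
Log2 fold changes of the 8 genes with the SE of the fit of all 8 libraries, between gates (left) and between genotypes (right). Afp is farthest from 0 between genotypes, at -2.77 in CD44plus, and the bars of Clu, Ly6a and Anxa1 are the widest.

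Levels of different genes can be compared per kilobase (kb) of annotated exon. In control CD44plus, Hopx was the highest by this measure at a mean of 54.6 CPM per kb, followed by Afp at 16.4, Bmi1 at 9.24, Ly6a at 4.95, Mex3a at 3.98, Tert at 3.49, Clu at 2.34 and Anxa1 at 1.24 CPM per kb. Of the neighbours in this order, only Mex3a and Tert overlapped between replicates. In Sox4cKO CD44plus, Hopx was again at the top with 46.8 CPM per kb. Ly6a at 9.10 and Bmi1 at 8.63 CPM per kb overlapped, and so did each pair of neighbours among Tert (2.87), Afp (2.38), Anxa1 (2.09), Clu (1.99) and Mex3a (1.53 CPM per kb). Afp thus stood above Bmi1 in control crypt-enriched cells and below it without Sox4.

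Bmi1 encodes a subunit of the Polycomb repressive complex PRC1, which keeps genes silent through histone marks. The gene lies on GRCm38 chromosome 2, 18677018 to 18686629, on the + strand. It was read 19 and 22 times in control CD44minus (12.8 and 8.65 CPM), 29 and 40 times in Sox4cKO CD44minus (14.4 and 10.9 CPM), 405 and 176 times in control CD44plus (36.2 and 32.1 CPM) and 178 and 402 times in Sox4cKO CD44plus (25.7 and 38.1 CPM). All 4 CD44plus libraries were above all 4 CD44minus libraries, and within each gate the genotypes overlapped. Without TMM factors, Sox4cKO CD44minus 1 (24.7 CPM) lay above Sox4cKO CD44plus 1 (23.2 CPM). The log2 fold change between gates was 1.69 (SE 0.57) in control and 1.35 (SE 0.55) in Sox4cKO. Between genotypes it was -0.10 (SE 0.52) in CD44plus and 0.24 (SE 0.58) in CD44minus, and both values changed sign when a library was left out (-0.41 without Sox4cKO CD44plus 2 to 0.041 without Sox4cKO CD44plus 1, and -0.036 without control CD44minus 2 to 0.53 without control CD44minus 1). The spread between the Sox4cKO CD44plus replicates was wider than the difference of the genotype means.

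Hopx encodes a small homeodomain protein that does not bind DNA and acts through other regulators. It lies on chromosome 5, 77086988 to 77115121, on the - strand, and shares 412 bases of exon with the antisense gene Hopxos. It gave 17 and 55 reads in control CD44minus cells (11.5 and 21.6 CPM) and 31 and 108 reads in Sox4cKO CD44minus (15.4 and 29.4 CPM). In CD44plus it gave 887 and 472 reads in control (79.3 and 86.2 CPM) and 478 and 767 reads in Sox4cKO (69.1 and 72.7 CPM). The gates were far apart in both genotypes, with a log2 fold change of 2.30 (SE 0.61) in control and 1.65 (SE 0.59) in Sox4cKO. The Sox4cKO CD44plus libraries lay below both controls by a small margin, at a log2 fold change of -0.22 (SE 0.57). In CD44minus the genotypes overlapped. Whether counting used strand is not given in the sources used here, so reads of Hopx and Hopxos cannot be told apart.

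Tert encodes the reverse transcriptase subunit of telomerase, the enzyme that extends chromosome ends. The gene is on chromosome 13, 73626911 to 73649843, on the + strand. Its level was 14.1 and 5.11 CPM in control CD44minus (21 and 13 reads), 16.3 and 17.98 CPM in Sox4cKO CD44minus (33 and 66 reads), 17.5 and 12.6 CPM in control CD44plus cells (196 and 69 reads) and 12.3 and 12.5 CPM in Sox4cKO CD44plus (85 and 132 reads). The lowest and the highest value were both in CD44minus libraries, and no gate stood apart in both genotypes. The log2 fold change between gates was 0.68 (SE 0.69) in control and -0.47 (SE 0.66) in Sox4cKO. The control value was 1.55 without control CD44minus 1 and 0.082 without control CD44minus 2. The lower values of Sox4cKO CD44plus missed an overlap with control by less than the width of either library's counting interval.

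Mex3a encodes an RNA-binding protein with KH domains and marks a slowly dividing part of the Lgr5+ cells. It lies on chromosome 3, 88532395 to 88541396, on the + strand, with the microRNA gene Mir1905 on the other strand. In CD44plus it gave 276 and 117 reads in control (24.7 and 21.4 CPM) and 39 and 127 reads in Sox4cKO (5.64 and 12.03 CPM). In CD44minus it gave 31 and 27 reads in control (20.9 and 10.6 CPM) and 47 and 6 reads in Sox4cKO (23.3 and 1.63 CPM). Both Sox4cKO CD44plus libraries lay below both controls, while the Sox4cKO CD44minus libraries held the lowest value of all and one close to the highest. The predicted background was 17.8 of the 47 reads in Sox4cKO CD44minus 1, and 11.8 of 31 and 11.7 of 27 in control CD44minus. The log2 fold change of Sox4cKO against control was -1.37 in CD44plus (SE 0.84 in the fit of all 8 libraries and 0.37 in the fit of the 4 CD44plus libraries). In CD44minus it was -0.37 (SE 0.87), from -3.24 without Sox4cKO CD44minus 1, where it was 1 of 7613 genes called, to 0.59 without Sox4cKO CD44minus 2. The gate comparison in Sox4cKO ran from -1.37 to 2.43 on the log2 scale when single libraries were left out, so Mex3a shows no stable order of the gates there. Beside it, 10 markers of the Lgr5+ stem cells summed to 5860 and 6323 CPM in control CD44plus cells and 4854 and 4699 CPM in Sox4cKO CD44plus. All 10 had a negative log2 fold change, none was called (edgeR, 1 at an unadjusted p of 0.05; DESeq2 and limma-voom also none), and their part in the level of Mex3a was not tested.

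Clu encodes clusterin, a secreted chaperone that marks a rare stem cell of the regenerating gut. Its locus is chromosome 14, 65968483 to 65981547, on the + strand. It gave 15 and 13 reads in control CD44minus cells (10.1 and 5.11 CPM), 9 and 3 reads in Sox4cKO CD44minus (4.46 and 0.817 CPM), 58 and 18 reads in control CD44plus cells (5.18 and 3.29 CPM) and 36 and 21 reads in Sox4cKO CD44plus (5.21 and 1.99 CPM). The groups overlapped in every comparison except the genotypes in CD44minus, where both Sox4cKO libraries were lower. The log2 fold change there was -1.56 (SE 1.23), and it was -3.18 without Sox4cKO CD44minus 1 and -0.75 without Sox4cKO CD44minus 2. Without TMM factors the genotypes overlapped in CD44minus (16.9 and 5.59 CPM in control, 7.66 and 0.431 CPM in Sox4cKO). Both control CD44plus libraries then lay below both of control CD44minus. In the 2 Sox4cKO CD44minus libraries the reads did not exceed the predicted background beyond counting error.

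Ly6a encodes Sca-1, a surface protein anchored by a lipid tail, used as a marker of fetal-like epithelium and also made by lymphocytes and blood stem cells. The gene is on chromosome 15, 74994877 to 74998031, on the - strand, among related Ly6 genes, so reads that fit several copies could be missing from its count. The gene gave 6 and 8 reads in control CD44minus cells (4.04 and 3.14 CPM), 3 and 18 reads in Sox4cKO CD44minus (1.49 and 4.90 CPM), 52 and 29 reads in control CD44plus cells (4.65 and 5.30 CPM) and 32 and 144 reads in Sox4cKO CD44plus (4.63 and 13.6 CPM). Only Sox4cKO CD44plus replicate 2 stood out, and replicate 1 of that group was level with the controls. The log2 fold change of Sox4cKO against control in CD44plus was 0.88 (SE 1.03), and without that library it was -0.10.

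Anxa1 encodes annexin A1, a phospholipid-binding protein that dampens inflammation and is abundant in white blood cells. Its locus is chromosome 19, 20373428 to 20390944, on the - strand. It gave 8 and 4 reads in control CD44minus cells (5.39 and 1.57 CPM) and 4 and 1 reads in Sox4cKO CD44minus (1.98 and 0.272 CPM). In CD44plus it gave 18 and 17 reads in control (1.61 and 3.10 CPM) and 26 and 44 reads in Sox4cKO (3.76 and 4.17 CPM). Both Sox4cKO CD44plus libraries lay above both controls, at a log2 fold change of 0.76 (SE 1.35), which was 0.35 without control CD44plus 1 and 1.29 without control CD44plus 2. In all 4 CD44minus libraries the interval of its reads covered the predicted background, so its level there was not detectable at this depth.

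Markers of white blood cells are given beside these values. The summed level of the 18 T cell genes was 2467 and 3969 CPM in control CD44plus cells and 2701 and 6498 CPM in Sox4cKO CD44plus. The 6 mast cell genes summed to 345 and 495 CPM and to 438 and 1543 CPM, and the 18 genes of B, plasma and myeloid cells to 236 and 428 CPM and to 399 and 882 CPM. Sox4cKO CD44plus replicate 2 was the highest of all libraries for each of the 3 sums, as it was for Ly6a. Sox4cKO CD44plus replicate 1 was below control CD44plus replicate 2 for each sum, while its Anxa1 was higher (3.76 against 3.10 CPM). All 42 of these genes were detected in the 4 CD44plus libraries, and all 42 had a positive log2 fold change of Sox4cKO against control there. None was called by edgeR (1 at an unadjusted p of 0.05), DESeq2 or limma-voom. Their part in the levels of Ly6a and Anxa1 was not tested.

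**Figure D3:**
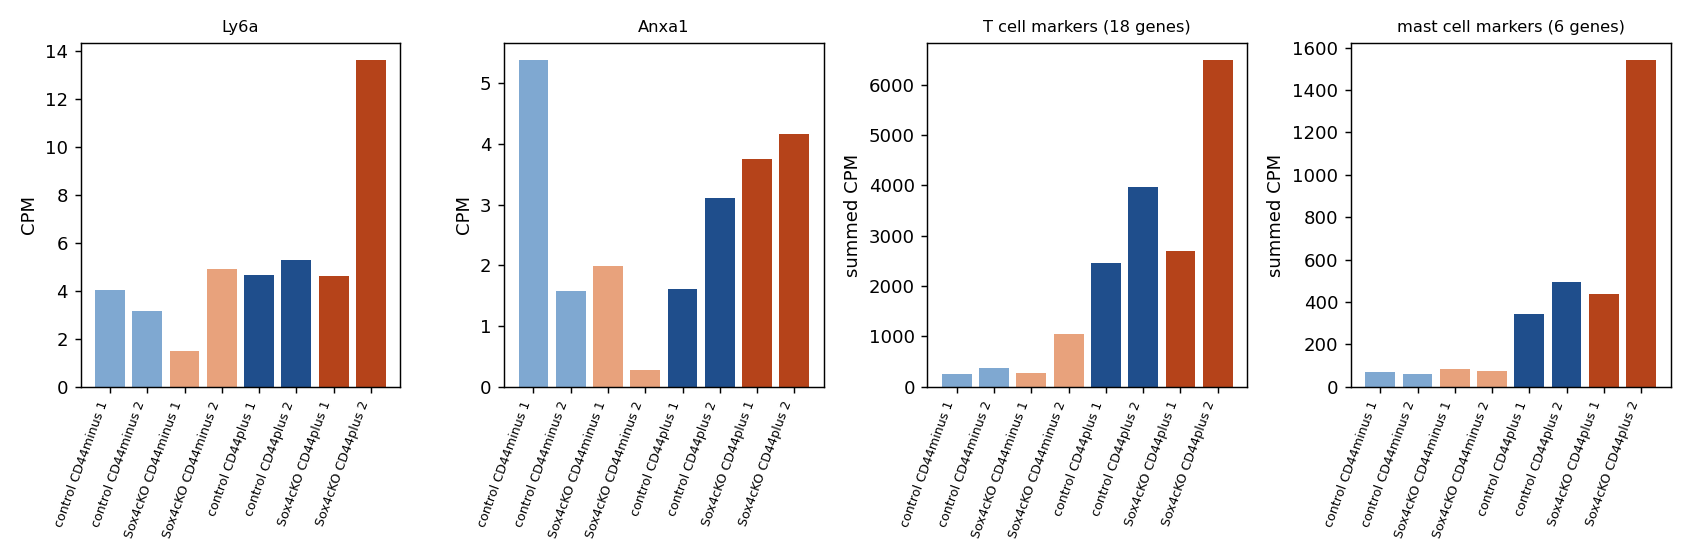
Level of Ly6a and Anxa1 and summed level of the T cell and mast cell marker genes in each library (CPM, bars from 0). Sox4cKO CD44plus replicate 2 has the tallest bar for Ly6a (13.6 CPM), T cell genes (6498 CPM) and mast cell genes (1543 CPM); Anxa1 is tallest in control CD44minus replicate 1 (5.39 CPM, from 8 reads).

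Afp showed the widest difference between genotypes of the 8 genes. It lies on chromosome 5, 90490737 to 90508907, on the + strand, next to Alb in the albumin gene cluster, and the antisense gene Gm43449 overlaps it outside its exons. In control CD44plus it was read 441 and 154 times (39.4 and 28.1 CPM). In Sox4cKO CD44plus it was read 22 and 70 times (3.18 and 6.63 CPM), and in CD44minus 8 and 15 times in control (5.39 and 5.90 CPM) and 12 and 10 times in Sox4cKO (5.94 and 2.72 CPM). The 2 control CD44plus libraries thus stood alone, and the other 6 overlapped across groups. Afp was 6.82-fold lower in Sox4cKO CD44plus than in control CD44plus, a log2 fold change of -2.77 with an SE of 0.73, or of 0.37 in the fit of the 4 CD44plus libraries. Between gates the log2 fold change was 2.57 (SE 0.76) in control and 0.22 (SE 0.74) in Sox4cKO, where it ran from -0.40 (without Sox4cKO CD44plus 2) to 0.86 (without Sox4cKO CD44minus 1). The genotype difference in CD44plus exceeded that in CD44minus by -2.35 on the log2 scale (SE 1.05). Over 19 alternative settings, the genotype value in CD44plus stayed negative in all, from -3.40 to -2.36. All of these settings reuse the same libraries, so the shared sign adds no support.

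The reads of Afp were 94.2 and 72.3 times the predicted background in control CD44plus and 6.08 and 59.1 times in Sox4cKO CD44plus. The background rate of these Sox4cKO replicates was 1.75 and 0.574 reads per kb. In replicate 1 of CD44minus of either genotype, the interval of the reads covered the predicted background. Across the 8 genes, the reads exceeded it in all 4 CD44plus libraries, and the lowest ratio there was that of Mex3a in Sox4cKO replicate 1 (3.85). In CD44minus, all values of Bmi1 and Hopx exceeded it. Bmi1 reads there were 2.51 and 2.94 times the predicted background in control and 2.54 and 13.1 times in Sox4cKO. Tert reads were 2.38 times it in control replicate 1 and 2.48 times in Sox4cKO replicate 1, so background was a sizeable part of these levels. The interval covered the predicted background for Tert in control replicate 2, Mex3a in Sox4cKO replicate 2, Clu in both Sox4cKO libraries, Ly6a in Sox4cKO replicate 1 and Anxa1 in all 4 libraries.

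**Figure D4:**
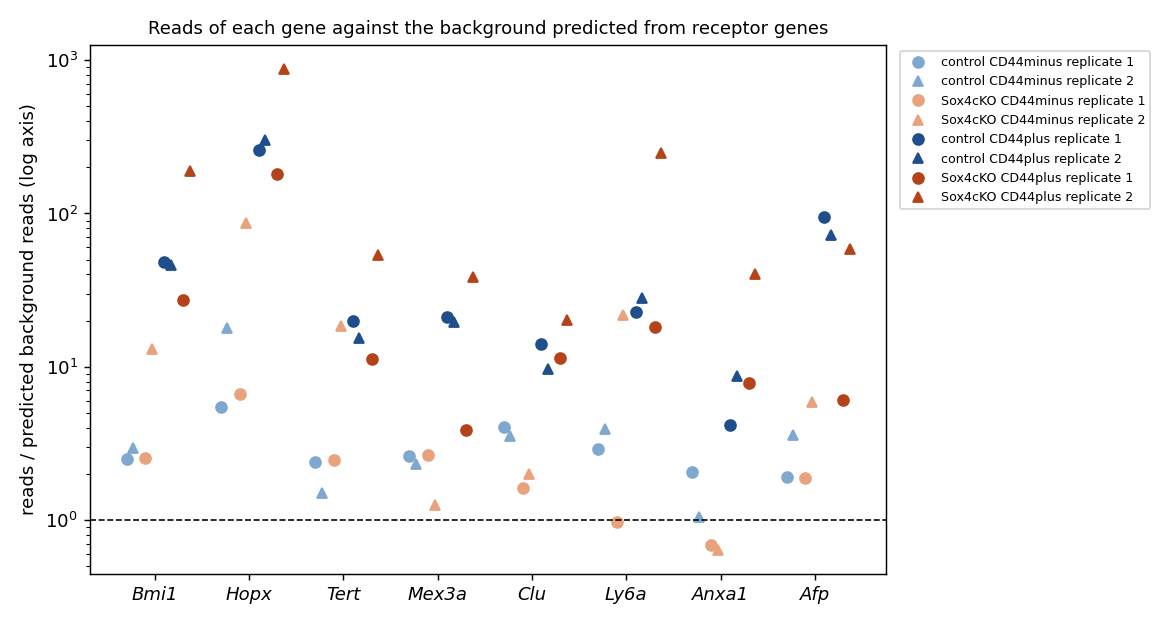
Reads of each gene divided by the reads predicted from receptor genes and exon length, in each library (log axis, dashed line at 1). CD44plus points lie at 3.85 or higher for every gene; CD44minus points reach down to the line, with Anxa1 at 0.641 in Sox4cKO replicate 2.

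Enteroendocrine cells secrete the hormones of the gut, and their genes had values in the same direction as Afp. The 17 genes of that list summed to 5038 and 6324 CPM in control CD44plus cells and 1340 and 1858 CPM in Sox4cKO CD44plus, and to 210 to 287 CPM in CD44minus. In CD44plus, 16 of 17 were lower in Sox4cKO, with a median log2 fold change of -1.53 and none at 0 reads. None passed in the fit of all 8 libraries (edgeR, 11 at an unadjusted p of 0.05; DESeq2 and limma-voom also none), and 6 passed in the fit of the 4 CD44plus libraries. With the replicate number as a block, 1 of them, Cpe, passed, the only 1 of all genes (0.0049%). Their part in the level of Afp was not tested.

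The genes with the profile most like each member over the 8 libraries were found by the root mean square difference (RMS) of centred log2(CPM + 0.5) values among 13929 genes. For Afp these were Vwa5b2 (RMS 0.494), Pax6 (0.509) and Scgn (0.545). Vwa5b2 was at 46.1 and 53.5 CPM in control CD44plus cells and at 14.9 and 14.4 CPM in Sox4cKO CD44plus. Pax6 was at 31.1 and 40.55 CPM and at 5.64 and 7.11 CPM in these groups, with 3.27 to 14.8 CPM in CD44minus. For Mex3a they were Phldb2 (0.274), Amigo2 (0.291) and Sv2c (0.337), and Amigo2 was at 31.3 and 28.9 CPM in control CD44plus cells and at 8.53 and 10.4 CPM in Sox4cKO CD44plus. All 3 were low in Sox4cKO CD44minus replicate 2, as Mex3a was, with 1.63, 2.72 and 0.545 CPM. This library was part of the match, so their low values there follow from the choice. The other members had closer matches, with Zfp828, Trub1 and Ddx51 for Bmi1 (0.113 to 0.137), Tmem176b, Etaa1 and Ckap5 for Hopx (0.129 to 0.144) and Hemk1, Rsad1 and Tmem106c for Tert (0.221 to 0.238). Clu, Ly6a and Anxa1 had under 50 reads per library on average and were not matched.

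**Figure D5:**
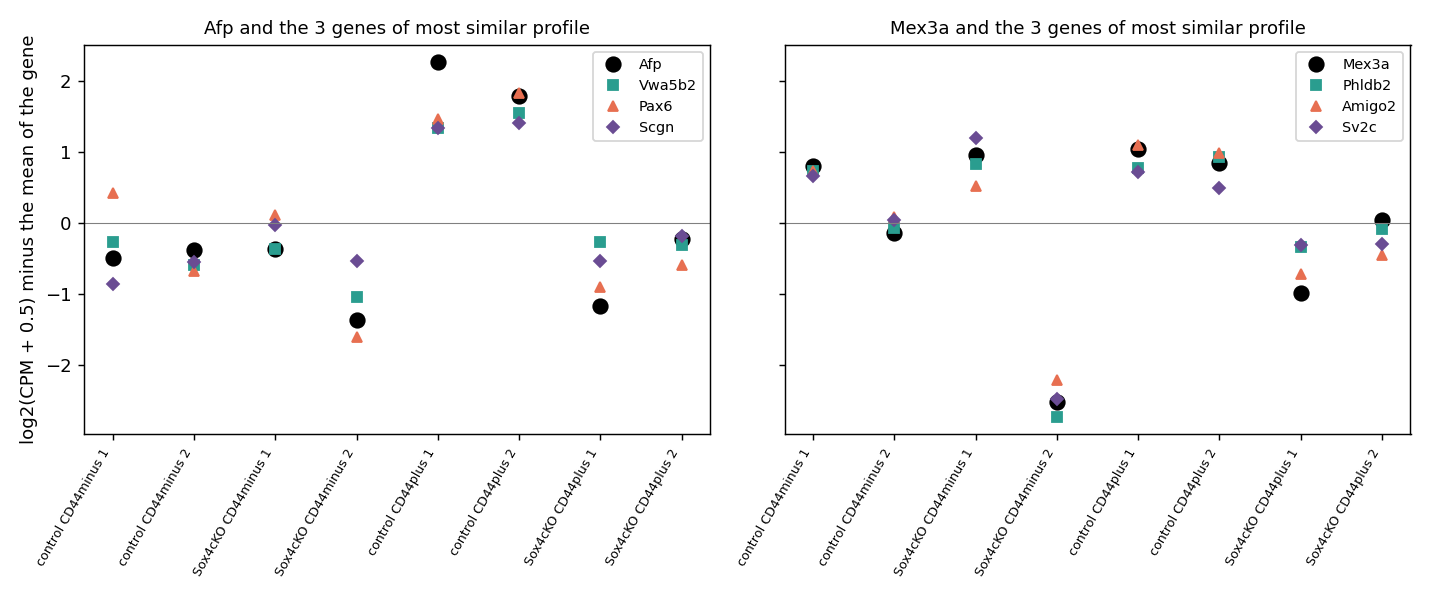
Centred log2(CPM + 0.5) of Afp (left) and Mex3a (right) with the 3 genes of the smallest RMS difference, by library. The Afp group is high in the 2 control CD44plus libraries and below its mean in both Sox4cKO CD44plus libraries. The Mex3a group has its lowest point in Sox4cKO CD44minus replicate 2. The matched genes were chosen over these same libraries.

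Other reserve stem cell genes had the gate pattern of Bmi1 and Hopx in part. All 10 had a positive log2 fold change in control CD44plus against CD44minus (median 1.31, beside -0.19 for all genes). For Prox1 (0.029, SE 0.59), Krt15 (0.083, SE 1.04), Cdkn1c (0.34, SE 0.71) and Krt19 (0.44, SE 1.19), named after their values were seen, it was smaller than the SE. Of the 10, edgeR called none (5 at an unadjusted p of 0.05, beside 23% of all genes), DESeq2 4 and limma-voom 3. In the fit with the animal as a block, 3 passed (Fgfbp1, Lrig1 and Msi1, named after their values were seen). In Sox4cKO, 6 of 10 were positive, and edgeR called 1 higher in CD44plus, Msi1, while DESeq2 and limma-voom each called 3 (Lrig1, Msi1 and Sox9). Msi1, an RNA-binding protein gene of stem cells, was at 13.9 and 2.18 CPM in CD44minus and 55.0 and 47.4 CPM in CD44plus (log2 fold change 2.74, SE 0.70, edgeR adjusted p = 0.0436). Between genotypes in CD44plus, 9 of 10 were negative (median -0.36) and none was called by edgeR (0 at an unadjusted p of 0.05), DESeq2 or limma-voom. The Msi1 call was lost with DESeq2 size factors (edgeR adjusted p = 0.0888) and without any one of control CD44minus 2, control CD44plus 1 or 2 and Sox4cKO CD44plus 1 or 2 (edgeR adjusted p = 0.0720 to 0.253).

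The partners of Bmi1 in PRC1 and its target Cdkn2a gave no call among 16 genes between gates by edgeR (5 in control and 2 in Sox4cKO at an unadjusted p of 0.05, beside 23 and 17.7% of all genes), DESeq2 or limma-voom. In the fit with the animal as a block, 1 passed in control, Rnf2, the ubiquitin ligase subunit (35.5 and 42.9 CPM in CD44plus against 13.5 and 10.6 CPM in CD44minus, named after its values were seen). The 2 most abundant were Phc3 and Pcgf3, other subunits of the complex. Phc3 was at 46.5 and 70.4 CPM in control CD44minus cells and 150 and 120.2 CPM in the control CD44plus cells, and at 106 and 159 CPM in Sox4cKO CD44plus. Pcgf3 was at 47.8 to 186 CPM in CD44minus, highest in Sox4cKO replicate 2, and at 96.5 to 108 CPM in CD44plus. Between genotypes, none of the 16 was called in either gate by the 3 tools.

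Of the other 8 genes of telomerase, edgeR called 3 higher in CD44plus in control (Dkc1, Nhp2, Nop10) and 3 in Sox4cKO (Dkc1, Nhp2, Naf1), as did limma-voom. DESeq2 called 3 higher in control and 5 higher and 1 lower in Sox4cKO, and the animal block 5 higher in each. The lower gene was Tep1, which encodes a telomerase-associated protein and is named after its values were seen. It was the most abundant of the 8, at 253 and 1233 CPM in Sox4cKO CD44minus and 249.8 and 229 CPM in Sox4cKO CD44plus, and its log2 fold change between gates was negative in both genotypes (-0.67, SE 0.94, in control and -1.63, SE 0.95, in Sox4cKO). Dkc1, the pseudouridine synthase dyskerin, was at 3.37 and 10.2 CPM in control CD44minus cells and 104 and 88.95 CPM in control CD44plus (log2 fold change 3.77, SE 0.78, edgeR adjusted p = 0.0221). In Sox4cKO the level was 4.46 and 21.3 CPM in CD44minus and 86.5 and 114 CPM in CD44plus (2.92, SE 0.74, edgeR adjusted p = 0.0417). Nhp2, another protein of the same RNA-protein particle, gave 3.27 (SE 0.71, edgeR adjusted p = 0.0251) in control and 2.71 (SE 0.68, edgeR adjusted p = 0.0408) in Sox4cKO. These proteins also serve ribosomal RNA. Terc, the RNA template, was at 0.495 to 8.45 CPM in all libraries. Between genotypes none was called in either gate by edgeR (0 at an unadjusted p of 0.05), DESeq2 or limma-voom. The calls of Dkc1 and Nhp2 in control were lost without any one of the 4 control libraries (edgeR adjusted p = 0.0995 to 0.372), and those in Sox4cKO without control CD44minus 2, control CD44plus 1 or 2 or Sox4cKO CD44plus 2 (edgeR adjusted p = 0.0640 to 0.343), and for Nhp2 also without control CD44minus 1 (edgeR adjusted p = 0.0508).

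Of the other Mex3 genes, Mex3c was at 127 and 121 CPM in control CD44plus cells and 99.6 and 97.0 CPM in Sox4cKO CD44plus, and Mex3d at 26.98 and 27.4 CPM and 18.4 and 19.4 CPM. Both encode RNA-binding relatives of Mex3a, and in both the Sox4cKO CD44plus libraries lay below the controls. None of the 3 was called in any comparison by edgeR (0 at an unadjusted p of 0.05), DESeq2 or limma-voom.

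Of 22 other genes of fetal or regenerating epithelium, 21 could be tested. In control none was called between gates (edgeR, 6 at an unadjusted p of 0.05, beside 23% of all genes; DESeq2 1 higher and 2 lower, limma-voom 1 higher). With the animal as a block, 1 higher and 3 lower passed, beside 17.9% of all genes. In Sox4cKO 14 of 21 were negative. There edgeR called 1 lower in CD44plus, DESeq2 5 lower and 1 higher, limma-voom 3 lower and 1 higher, and the block 3 lower. The gene called by edgeR was Il33, an alarm cytokine, at 13.4 and 24.5 CPM in CD44minus and 2.169 and 0.474 CPM in CD44plus (log2 fold change -3.86, SE 0.98, edgeR adjusted p = 0.0428). This call was lost without any one library other than those of Sox4cKO CD44minus (edgeR adjusted p = 0.0641 to 0.697), and the CD44plus value of replicate 2 rests on 5 reads. Between genotypes in CD44plus, 10 of 21 were positive and 11 negative, and none was called (edgeR, 1 at an unadjusted p of 0.05; DESeq2 and limma-voom also none). Ly6e, a relative of Ly6a named after its values were seen, was at 169 and 227 CPM in control CD44plus cells and 280 and 589 CPM in Sox4cKO CD44plus, again with the highest value in replicate 2. Il1rn, the interleukin receptor antagonist, was also named after its values were seen. It was at 8.31 and 6.58 CPM and at 21.8 and 23.7 CPM, with no overlap. Both genes come from the 10 positive ones, while the median log2 fold change of the 21 was -0.031.

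Among 14 genes of the YAP and TEAD axis none was called between gates by edgeR (5 in control and 4 in Sox4cKO at an unadjusted p of 0.05, beside 23 and 17.7% of all genes). DESeq2 called 1 higher and 2 lower in control and 3 lower in Sox4cKO, limma-voom 2 and 1 lower, and the animal block 2 higher and 2 lower in control and 1 lower in Sox4cKO. Nuak2, a kinase gene and YAP target, and Tead1, a DNA-binding partner of YAP, were the most abundant. Tead1 was at 110 and 102 CPM in control CD44plus cells and 82.9 and 72.3 CPM in Sox4cKO CD44plus, and Nuak2 at 54.1 and 59.7 CPM and 41.5 and 44.4 CPM. In CD44plus, 11 of 14 were negative in Sox4cKO against control (median -0.43), and none was called by the 3 tools (0 at an unadjusted p of 0.05 in edgeR).

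The neighbours and known regulators of Afp had other values. Alb, Afm and Gc, the neighbours in the albumin cluster (named after their values were seen), were at 0.365 to 2.19 CPM in all CD44plus libraries. Hnf4a, a nuclear receptor that drives liver and gut genes, was at 940 and 779 CPM in control CD44plus cells and 878 and 734 CPM in Sox4cKO CD44plus. Zfhx3, which encodes a repressor that binds an AT motif of the Afp gene, was at 240.5 and 247.5 CPM and at 162 and 245.5 CPM. None of the 13 genes was called in any comparison by edgeR (5 and 3 between gates at an unadjusted p of 0.05, beside 23 and 17.7% of all genes), DESeq2 or limma-voom, and 1 of them, Gc, was lower in control CD44plus with the animal as a block.

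Of 12 other oncofetal genes, which like Afp are active before birth and again in tumours, edgeR called 1 in the fit of all 8 libraries, H19 between gates in Sox4cKO (3 at an unadjusted p of 0.05, and 4 in control, beside 17.7 and 23% of all genes). DESeq2 and limma-voom called H19 too, and each called 3 lower in control CD44plus (Igf2bp1, Lin28b and Plagl1, named after their values were seen). H19, an imprinted noncoding RNA, was at 13.4 and 0.272 CPM in CD44minus and 37.5 and 186 CPM in CD44plus (log2 fold change 4.14, SE 1.03, edgeR adjusted p = 0.0400). Without Sox4cKO CD44plus replicate 2 it was 2.55 (edgeR adjusted p = 0.567), without control CD44minus replicate 2 the edgeR adjusted p was 0.0501, and with DESeq2 size factors 0.0827. In Sox4cKO Igf2bp1 also passed as lower by DESeq2 and with the animal as a block, and with the block 1 higher and 4 lower passed in control. Peg3, an imprinted zinc finger gene, was at 55.5 and 45.5 CPM in control CD44plus cells and 13.02 and 10.52 CPM in Sox4cKO CD44plus (621 and 249 reads against 90 and 111). Its log2 fold change of -2.10 passed in the fit of the 4 CD44plus libraries (SE 0.24, edgeR adjusted p = 0.0344) and not in the fit of all 8 (SE 0.65), where 0 of the 12 passed between genotypes in CD44plus (edgeR, 3 at an unadjusted p of 0.05; DESeq2 and limma-voom also none).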

How the data were processed

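Total RNA of sorted cells was sequenced with a strand-marking low-input kit, per the labels' protocols. The tools listed, with no role, in the submitters' processing notes are HTSeq 0.6.1p1, STAR 2.2.5b, Trimmomatic 0.36 and bcl2fastq 2.17.4, with the build mm10. The strand setting is not given in the sources used here. The deposited tables hold the authors' raw read counts per gene symbol. Reads counted to no gene, 64.6 to 96.6% of those placed once, stayed out of library sizes.

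The 8 genes and all lists were chosen with earlier results of these data known. Counts were fitted with edgeR 4.0.16 (R 4.3.3, quasi-likelihood test, 4 groups, 8 libraries, filterByExpr minimum count 10, TMM, Benjamini-Hochberg adjustment, threshold 0.05), after a check on simulated data. CPM carry TMM factors of 0.527 to 1.72. Exact Poisson 95% intervals and the floor of 3 counts (0.268 to 2.02 CPM) cover counting error only, since reads carry no molecular identifiers. Predicted background is the reads per kb of coding sequence of receptor genes times exon length, from GENCODE on GRCm38, which matched 98.5% of symbols. Promoter sequences are from RefSeq on GRCm38.p6, where 6 of the 8 genes matched.

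Named from each list were up to 2 called genes per direction and gate comparison with the largest fold, any gene called between genotypes, or else the 2 most abundant. The most-like genes needed a mean of 5 CPM, and their members a mean of 50 reads. The animal number in the table names is shared between gates, and pairing of the gates by animal rests on this number alone. Deviations from group means correlated between gates at 0.103 in control and 0.519 in Sox4cKO, which does not settle the pairing. The fit of the 4 groups over 8 libraries left the pairing out. Alternatives were DESeq2 1.42.0, limma-voom 3.58.1 with the animal as a random block, other scaling, no filter and the 4 libraries of a comparison. Further ones were the replicate block as a fixed effect in edgeR, background subtraction, and leaving out each library. Fits of the CD44plus libraries without 1 of them were added after seeing the data.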

Additional observations from a re-analysis of the deposited data

How the results depend on the processing

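The number of genes called moved widely with the settings. Between gates it was 502 in control (411 higher, 91 lower) and 529 in Sox4cKO (339 and 190). It became 994 and 884 without the count filter, 2199 and 1765 with DESeq2, 2176 and 1105 with limma-voom, 2038 and 1907 with background subtracted, 3659 and 1712 with the replicate block, and 9877 and 0 with the 4 libraries of each comparison (2154 in Sox4cKO at an unadjusted p of 0.05 in edgeR). With single libraries left out it ran from 0 (without control CD44minus 2) to 7362 (without Sox4cKO CD44minus 1) in control and from 11 (without Sox4cKO CD44plus 2) to 8440 (without Sox4cKO CD44minus 2) in Sox4cKO. With 1 library left in a group, that library is assumed to vary like the other groups.

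Between genotypes in CD44plus the count of 0 became 17 with the 4 libraries, 1 with the replicate block, 0 to 24 with single libraries left out (24 without Sox4cKO CD44minus 1), and 58, 216, 1554 and 200 in the fit of the CD44plus libraries without control 1, control 2, Sox4cKO 1 and Sox4cKO 2. Without Sox4cKO CD44minus replicate 1, 7613 genes were called in CD44minus and 254 for the difference between gates; without any other library both stayed at 0. The block used the animal for gates and the replicate number, which is shared but pairs nothing, for genotypes, and its further calls stand beside the results. The cause of these shifts was not tested.

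DESeq2 size factors moved the median log2 fold change of all genes between gates from -0.19 to -0.52 in control and from -0.48 to -0.72 in Sox4cKO, and the calls to 384 higher and 176 lower and to 329 and 312.

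Of 622 alternative fold changes of the 8 genes, 592 kept their sign. Between gates in control, Hopx and Afp were both called without the count filter, with the replicate block and with the 4 libraries. These settings called 994 of 22694, 3659 of 20427 and 9877 of 18006 genes. Bmi1 was also called with the 4 libraries. Hopx was the only member called there with DESeq2 size factors, DESeq2, limma-voom and background subtracted, beside 560, 2199, 2176 and 2038 genes in all. With background subtracted, Hopx also passed in Sox4cKO, where 1907 genes were called. Between genotypes no member was called in these settings with all libraries of the groups. With few reads, differences of Clu, Ly6a and Anxa1 in CD44minus were not detectable at this depth. Of the named list genes called between gates in Sox4cKO, none passed with the 4 libraries alone (edgeR adjusted p = 0.0624 to 0.258).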
